A study of Macaca mulatta with 4 samples.

Results

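Platelet-derived growth factor (PDGF) ligands and receptors were followed through single nuclei of the fetal rhesus macaque cerebellum. The family was taken by gene symbol from the list of genes of the count tables, which gave 1 row for each of PDGFA, PDGFB, PDGFC, PDGFD, PDGFRA and PDGFRB. These 6 genes, 4 ligands and 2 receptors, were 6 of the 30807 genes listed. The choice of genes used no measured value.

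Nuclei came from flash-frozen cerebellum of 4 fetuses, 1 library for each, as a model of chorioamnionitis, an infection or inflammation of the fetal membranes. The LPS group held 1 female of 131 days of gestation and 1 male of 133 days, taken 5 days after 1 mg of bacterial lipopolysaccharide (LPS) was injected into the amniotic fluid. The Control group held 1 female and 1 male of 130 days that are labelled as untreated. Both Controls were younger and are not labelled as injected, so LPS cannot be told apart from gestational age or from the injection itself. The comparison of both groups asked whether the transcripts of the family differed after exposure, and the comparison of classes of nuclei asked which cells held the transcripts of ligands and which held those of receptors.

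PDGF ligands are secreted as dimers and act through receptor tyrosine kinases on neighbouring cells. PDGFA is the classical growth factor of oligodendrocyte precursors, which carry the alpha receptor PDGFRA and lose it as they mature. PDGFB from endothelium recruits pericytes and smooth muscle, the mural cells of vessels, through the beta receptor PDGFRB. PDGFC and PDGFD carry an extra domain that proteases such as tissue and urokinase plasminogen activators must cut off before the ligand can bind. PDGFC then binds mainly PDGFRA, and PDGFD binds mainly PDGFRB.

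Unique molecular identifiers (UMIs), each standing for 1 captured transcript, were counted in 32587 barcodes with 500 or more genes, called nuclei here. The libraries held 6905 to 9256 nuclei and 34282015 to 61665690 UMIs. The female libraries had median UMIs per nucleus of 4506 (Control) and 4062 (LPS), against 1882 (Control) and 2308 (LPS) in the male libraries. The mean mitochondrial share of UMIs was 0.268% and 0.231% in the female and 0.0214% and 0.0327% in the male libraries, so that sex moved with depth and RNA composition. Of the UMIs of the LPS male library, 38.7% lay in nuclei, against 58.7% to 74.1% in the other libraries. An unnamed cluster of low UMI number held 24.3% of the nuclei of the LPS male library and 0.673% to 3.70% of those of the others, and these nuclei are part of the sum over all nuclei. Between 53 and 59 nuclei of a library (0.637% to 0.768%) shared their barcode with another library, and a doublet caller marked 5.33% to 7.39% of nuclei. The summed level of 5 Y-linked genes, scaled to 1000000 UMIs of the library (CPM), was 6.91 to 7.66 CPM in the female and 739 to 818 CPM in the male libraries, as labelled.

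Nuclei were sorted into classes by clusters made without the 6 genes and by marker genes, and each class name means that the nuclei were like that type by these markers. A level is given in CPM, the UMIs of a gene over all UMIs of that class and library, scaled to a total of 1000000. Because UMIs were counted near transcript ends and within introns, the level of a gene is compared between classes and libraries but not with the level of another gene. Values of the 4 libraries are listed in the order Control female, Control male, LPS female and LPS male. Nuclei of a library are not replicates, so the spread is that between libraries (SD, n = 4).

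**Figure D1:**
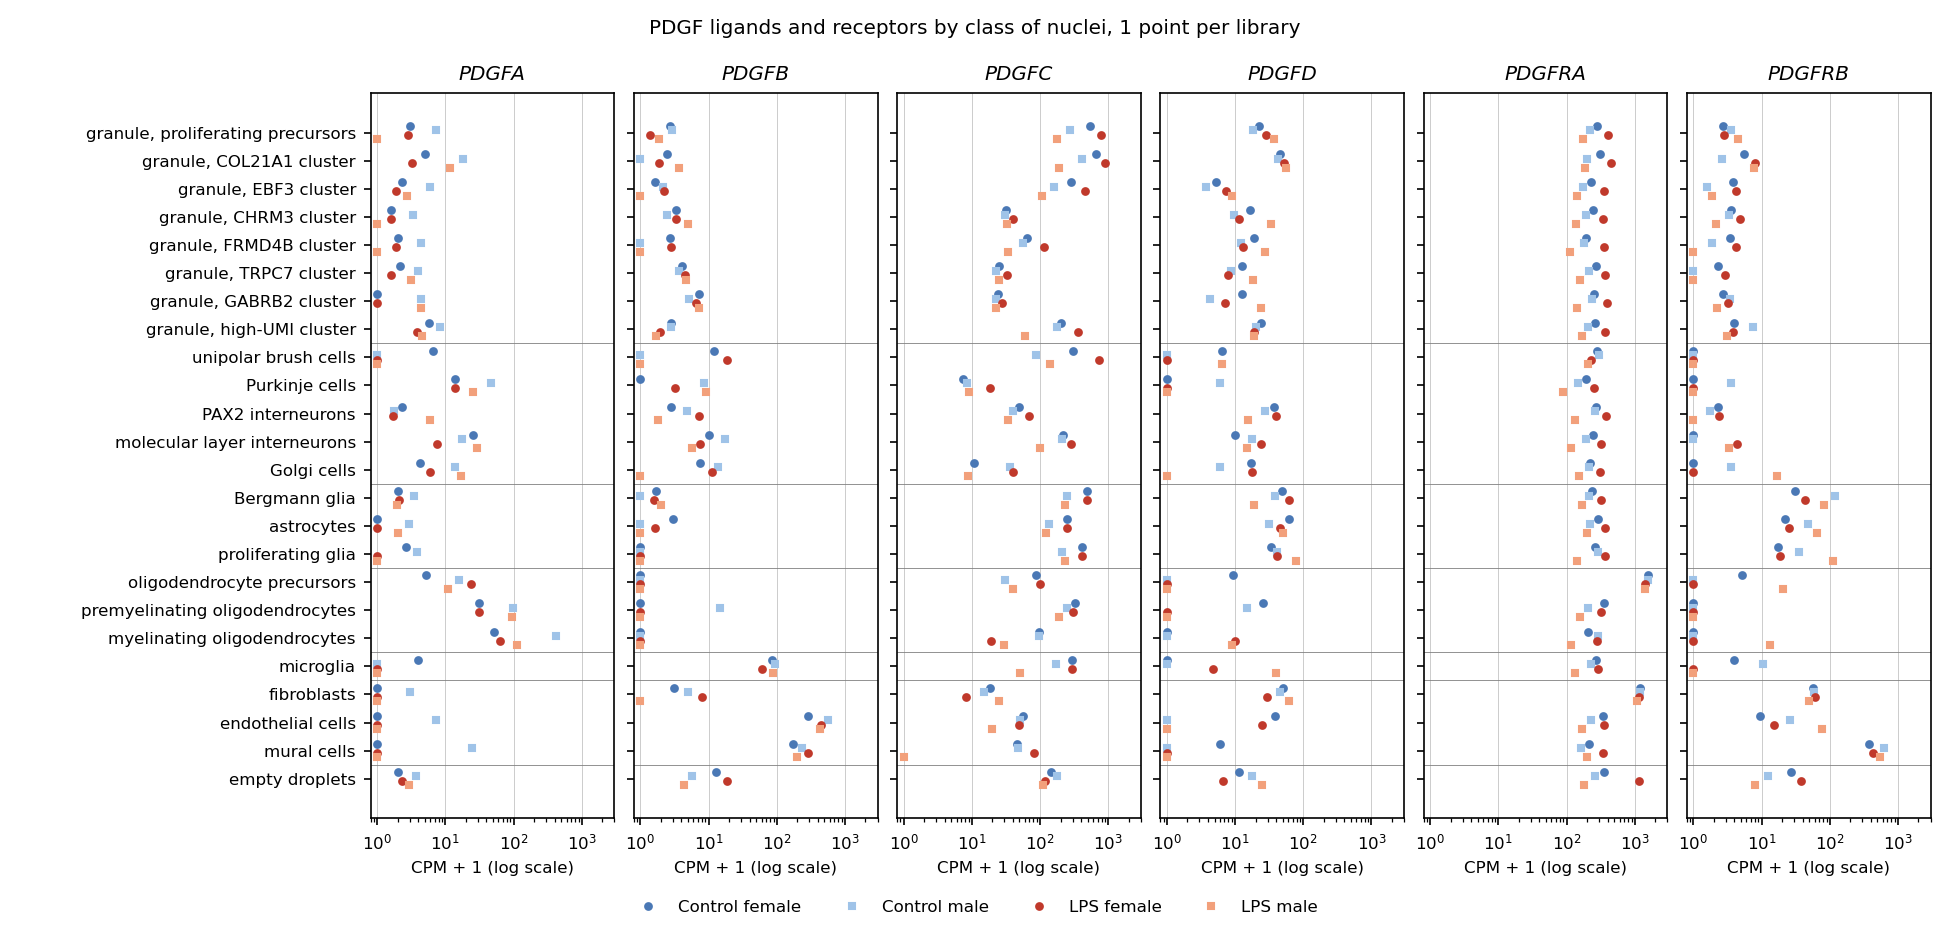
Levels of the 6 genes (CPM + 1, log scale) in 23 classes of nuclei and in empty droplets, 1 point per library (circles female, squares male, blue Control, red LPS). PDGFB, PDGFRA and PDGFRB each stood clear of the other classes in 1 to 3 classes, while PDGFC and PDGFD were spread over granule, astroglial and other classes. PDGFRA lay between 88.7 and 453.9 CPM in the 20 classes tested other than oligodendrocyte precursors and fibroblasts.

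Among the ligands, PDGFA was the one of the oligodendrocyte lineage. The whole cluster of the lineage, nuclei with neuronal genes included, held 2.11% of all UMIs in nuclei but 28.7% of the 408 UMIs of PDGFA. The granule lineage held 44.1% and other neurons 20.8% of these UMIs, with 70.1% and 9.52% of all UMIs. PDGFA in myelinating oligodendrocytes was 50.7, 414, 62.7 and 113 CPM, a mean of 160 ± 171 CPM. In premyelinating oligodendrocytes it was 30.4, 97.0, 30.3 and 94.8 CPM. In oligodendrocyte precursors, the cells that PDGFA is known to act on, its level was 4.14, 14.98, 23.2 and 9.77 CPM. These values rest on few UMIs, with PDGFA found in 6 of 153 precursors. Each library had more in the myelinating than in the premyelinating class, but the ranges of the 4 libraries overlapped between these classes.

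Within the myelinating class PDGFA sat in a small cluster that was led by MKX. That cluster held 24 nuclei in all, 4 to 7 in each library, and its PDGFA level was 121, 956, 118 and 654 CPM. The levels rested on 9, 25, 5 and 22 UMIs. In the other myelinating cluster, led by MAL, a gene of compact myelin, PDGFA was 8.15, 27.2, 28.8 and 28.1 CPM. That was below the premyelinating class in each library, by 28.8 against 30.3 CPM in the LPS female library. A UMI of PDGFA was found in 5, 6, 3 and 10 nuclei of the whole myelinating class, of which 4, 5, 2 and 5 lay in the MKX cluster. Few nuclei of the MAL cluster thus held any, so that its order against the premyelinating class was not resolved. Against the rest of the oligodendrocyte cluster, 5 of 8 myelinating markers were raised in the MKX cluster and 8 of 8 in the MAL cluster. Both males were higher than both females in the MKX cluster, and the libraries with more PDGFA there were also the shallower ones per nucleus, the part of which was not tested.

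Purkinje cells and molecular layer interneurons came next in PDGFA by mean, while PAX2 interneurons had a mean of 1.96 CPM. Purkinje cells had 12.9, 45.8, 13.05 and 24.2 CPM, and molecular layer interneurons had 24.4, 16.4, 6.60 and 27.9 CPM. The granule lineage as a whole had 1.49, 5.31, 1.04 and 2.52 CPM. That was near the 1.05, 2.72, 1.32 and 1.93 CPM of empty droplets, the barcodes below the nuclei in UMI number, which hold free RNA of the suspension. Within the lineage, the granule cluster led by COL21A1 had more, from 2.21 to 16.98 CPM by library (mean 8.49 ± 6.73).

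PDGFB marked the vessels. In endothelial cells it was 281, 559, 439.5 and 435 CPM, a mean of 429 ± 114 CPM, and a UMI of PDGFB was found in 57.9% to 63.6% of endothelial nuclei by library. The lowest and highest 95% Wilson bounds of these 4 shares were 36.3% and 77.8%, for counting error only. In granule-lineage nuclei the share was 0.365% to 1.145%. Vascular and fibroblast clusters held 51.9% of the 765 UMIs of PDGFB and 2.88% of all UMIs.

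Mural nuclei had 171, 234, 290.1 and 198.5 CPM of PDGFB, and microglia had 83.8, 93.6, 60.2 and 87.4 CPM. Each library had more in endothelial than in mural nuclei, although the ranges of both classes overlapped at 281 and 290.1 CPM, and the range of microglia lay below both. The mural class also held 2343, 633, 2641 and 2051 CPM of FLT1, a VEGF receptor of endothelium. The mural class joined 2 sub-clusters of 29 and 32 nuclei that were both led by mural markers such as RGS5, a regulator of G protein signalling in pericytes. In the 29 nuclei of the first, FLT1 was 110, 253, 39.6 and 0 CPM and PDGFB was 110, 84.3, 0 and 0 CPM, on 3, 2, 0 and 0 UMIs. No UMI of PDGFB was counted in 153 oligodendrocyte precursors, which allows up to 5.56 CPM (3 UMIs over the class), or in 103 myelinating oligodendrocytes, which allows up to 4.85 CPM.

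PDGFC was spread over many classes, and among the 22 separate classes its highest means were in young granule cells and astroglia. Molecular layer interneurons (203 ± 77.3 CPM) and microglia (201.5 ± 116 CPM) had higher means than astrocytes (188 ± 68.8 CPM), with overlapping ranges. Of its 21593 UMIs, 69.97% lay in the granule lineage, which held 70.1% of all UMIs, and 21.7% lay in Bergmann glia, astrocytes and proliferating glia, which held 12.7%. Its highest class was the granule cluster led by COL21A1, with 662, 416, 904 and 191 CPM (mean 543 ± 308). Proliferating granule precursors followed with 539.8, 271, 789 and 175 CPM (mean 444 ± 278). Each library had more in the COL21A1 cluster than in the precursors, but the ranges of both classes overlapped between libraries.

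The other granule clusters had less PDGFC by mean. The cluster led by EBF3 had 286, 161, 453 and 104 CPM, and the cluster led by FRMD4B had 63.8, 54.5, 114 and 33.1 CPM. The cluster led by GABRB2, a GABA-A receptor subunit, had 23.0, 21.7, 26.3 and 21.5 CPM. The order COL21A1, EBF3, FRMD4B and GABRB2 held in 4 of 4 libraries. Among these clusters the ranges of the first 3 overlapped with their neighbours between libraries, whereas those of the FRMD4B and GABRB2 clusters did not. The cluster led by CHRM3 (29.9 to 39.8 CPM) and the granule cluster of high UMI number (59.4 to 364 CPM) both overlapped with the FRMD4B cluster. The 75 unipolar brush cells, excitatory interneurons that were too few in some libraries for a test, had 303, 85.5, 742 and 141 CPM.

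**Figure D2:**
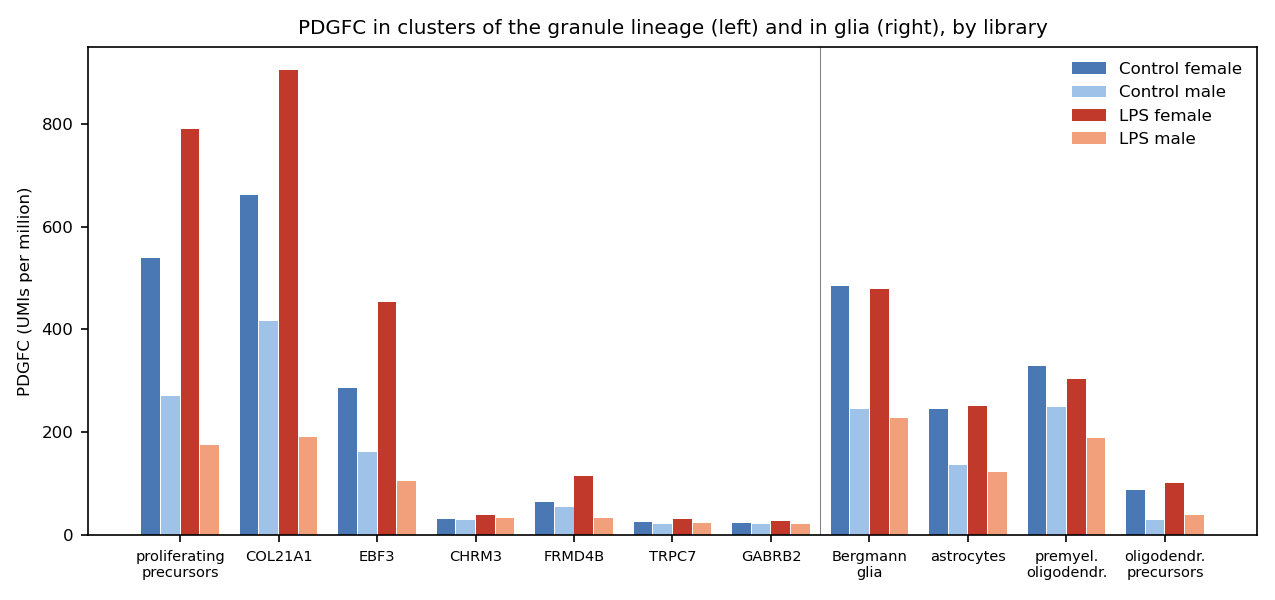
PDGFC (CPM, linear scale from 0) in 7 granule clusters, left, and 4 glial classes, right, with 1 bar per library. Bars of the female libraries (dark) stood above those of the male libraries (light) in proliferating precursors, COL21A1 and EBF3 clusters and in glia, while levels were between 21.4 and 39.8 CPM in all libraries in the CHRM3, TRPC7 and GABRB2 clusters.

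In glia PDGFC was 484, 246, 479.6 and 228 CPM in Bergmann glia, the radial glia that granule cells migrate along, and 245, 135, 251 and 122 CPM in astrocytes. Premyelinating oligodendrocytes had 328, 250, 303 and 190 CPM. That was above oligodendrocyte precursors, with 87.0, 29.96, 100.4 and 39.1 CPM, and above myelinating oligodendrocytes, with 96.4, 95.5, 17.9 and 28.3 CPM, in each of the 4 libraries. The ranges of the premyelinating class and of both neighbouring stages did not overlap. Fibroblasts had 17.2, 14.2, 7.12 and 24.1 CPM and Purkinje cells 6.44 to 17.4 CPM.

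Free RNA carried PDGFC as well, at 143, 179, 116 and 111 CPM in empty droplets. Among others, the levels of fibroblasts, Purkinje cells, oligodendrocyte precursors, myelinating oligodendrocytes and the FRMD4B and GABRB2 clusters lay below these in each library. Astrocytes lay below in the Control male library, and the EBF3 cluster in both male libraries. When each nucleus was thinned to 1000 UMIs, a UMI of PDGFC was found in 43.6%, 32.7%, 54.1% and 16.5% of nuclei of the COL21A1 cluster, against 0% to 4.17% of fibroblasts, with 1 to 4 of 24 to 103 nuclei in the 2 libraries that had any. The highest Wilson bound of the fibroblast shares was 20.2%, in the 24 nuclei of the LPS male library. Thinning left out the nuclei with fewer UMIs and kept 768 of 785, 615 of 722, 706 of 731 and 303 of 311 nuclei of the COL21A1 cluster, whose shares without thinning were 78.7%, 41.4%, 84.9% and 28.6%. Fibroblasts without thinning had 2.86% to 6.60%.

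PDGFD was low in all classes. Its highest class by mean was the COL21A1 granule cluster with 44.5, 41.2, 51.8 and 54.9 CPM, on 120, 51, 117 and 41 UMIs. Proliferating glia had 33.1, 39.55, 39.6 and 76.1 CPM, astrocytes 61.8, 30.9, 45.3 and 49.7 CPM, fibroblasts 49.4, 44.5, 28.5 and 60.3 CPM, and Bergmann glia 48.1, 37.6, 60.9 and 17.8 CPM. The ranges of these 5 classes overlapped, and their order was not resolved. Purkinje cells, mural cells and oligodendrocyte precursors each had a mean of 1.26 to 2.07 CPM, on at most 2 UMIs in a library. Empty droplets had 10.4, 16.97, 5.75 and 23.7 CPM.

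Within fibroblasts PDGFD was higher in the cluster led by EDN3, at 81.1, 73.9, 32.6 and 100.8 CPM on 3 to 13 UMIs, than in the cluster led by ABI3BP, at 32.8, 39.8, 26.8 and 37.6 CPM on 2 to 17 UMIs. The order was the same in 4 of 4 libraries. In the LPS female library it rested on 4 UMIs in 37 nuclei and 8 UMIs in 68 nuclei. These clusters were made at resolution 0.3. At resolution 0.5 the cluster with EDN3 among its leading genes held 40, 0, 32 and 9 nuclei, so that the comparison depends on the resolution.

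Of the receptors, PDGFRA was far higher in oligodendrocyte precursors and in fibroblasts than in the other classes. Oligodendrocyte precursors had 1569, 1543, 1428 and 1437 CPM, a mean of 1494 ± 72.3 CPM, on 379, 103, 185 and 147 UMIs. Fibroblasts, the collagen-producing cells of meninges and vessel walls, had 1177, 1187, 1163 and 1074 CPM, a mean of 1150 ± 51.9 CPM. The ranges of these 2 classes did not overlap with each other or with any of the 20 other classes. Empty droplets of the LPS female library had 1150 CPM, near the fibroblast level of that library.

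Both fibroblast clusters carried the receptor. The ABI3BP cluster had 1258, 1199, 1155 and 1298 CPM. The EDN3 cluster had 1023, 1109, 1184 and 672 CPM, the last on 20 UMIs in 12 nuclei. Dividing oligodendrocyte precursors, 30 nuclei in all, had 708, 1547, 1511 and 1458 CPM, with 8 nuclei behind the value of the Control female library.

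**Figure D3:**
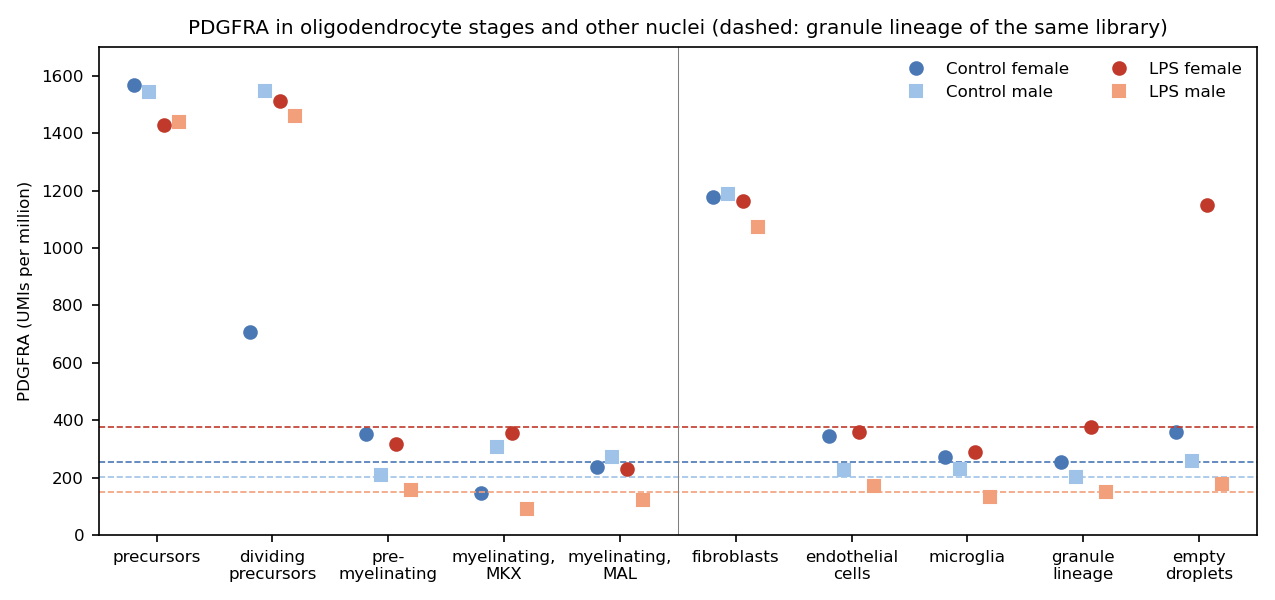
PDGFRA (CPM) in oligodendrocyte stages, left, and in fibroblasts, other nuclei and empty droplets, right, with 1 point per library; dashed lines mark the granule lineage of the same library (same colour). Precursors and fibroblasts sat above 1000 CPM in all libraries, whereas premyelinating and myelinating nuclei sat between 89.2 and 355 CPM, on both sides of the line of their library.

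Between precursors and the premyelinating stage PDGFRA went from 1569 to 352, from 1543 to 208, from 1428 to 318 and from 1437 to 158 CPM. Its level in myelinating nuclei was 203, 286, 278 and 117 CPM. Since PDGFRA is the usual marker of the precursor stage, it was kept out of the clustering and of the marker lists, and the stages were named by other genes such as PCDH15, LHFPL3 and VCAN. OLIG1 had no UMI in the precursor or myelinating class, although 9 of 10 markers of the lineage in the gene list had UMIs in both.

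Outside these classes PDGFRA was found in every class, at levels that differed between libraries and, less widely than those of PDGFC, between classes. Over the 20 classes other than oligodendrocyte precursors and fibroblasts, the lowest, median and highest levels were 189.7, 255 and 352 CPM in the Control female library. They were 148, 212 and 288 CPM in the Control male, 252, 352 and 454 CPM in the LPS female, and 88.7, 147 and 198.5 CPM in the LPS male library. Within a library these 20 classes thus spanned 1.80 to 2.24 times, whereas PDGFC spanned 51.97 to 102.8 times over the same classes in the 3 libraries in which none of them was at 0. Purkinje cells were the lowest of the 20 in 3 libraries, at 148, 252 and 88.7 CPM, and had 191.6 CPM in the Control female library, next to the lowest.

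Classes in which PDGFRA is not known as a marker also held it. Microglia had 272, 229, 289.7 and 131 CPM, endothelial cells 344, 226, 358 and 170.3 CPM, and the granule lineage 254.5, 203, 375 and 150.3 CPM. Empty droplets had 359, 259, 1150 and 177 CPM. In the gene list PDGFRA was bordered by KDR and CHIC2, and no row carried the symbol KIT or FIP1L1. The part of this in the levels of PDGFRA was not tested.

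Shares of nuclei with a UMI are given before and after thinning to equal depth. A UMI of PDGFRA was found in 63.97%, 29.9%, 74.0% and 33.5% of granule-lineage nuclei and in 98.1%, 88.6%, 93.8% and 97.0% of oligodendrocyte precursors. Thinned to 1000 UMIs, the granule lineage had 22.3%, 17.5%, 31.7% and 13.7%, and microglia had 21.95%, 19.1%, 26.2% and 17.1%. Oligodendrocyte precursors had 71.2%, 75.0%, 78.1% and 78.8%, with Wilson bounds from 57.7% to 89.3%, and fibroblasts 68.9%, 60.8%, 54.4% and 54.2%, with bounds from 35.1% to 77.1%. Thinning kept 52, 32, 32 and 33 precursors and 103, 153, 103 and 24 fibroblasts. Precursors and fibroblasts stayed above microglia and the granule lineage in each library. Premyelinating oligodendrocytes, thinned, had 37.5%, 22.7%, 47.4% and 17.4% of 19 to 24 nuclei, above the granule lineage in 4 of 4 libraries. Wilson bounds ran from 21.2% to 57.3%, 10.1% to 43.4%, 27.3% to 68.3% and 6.98% to 37.1%, so that each included the granule share of its library.

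Taken as the difference from the granule lineage of the same library, PDGFRA in precursors was 1315, 1340, 1053 and 1287 CPM and in fibroblasts 922.7, 983, 788 and 923 CPM. In premyelinating oligodendrocytes the difference was 98.0, 4.72, -56.3 and 7.75 CPM. In myelinating oligodendrocytes it was -51.6, 83.3, -96.99 and -33.2 CPM. The differences of both later stages took both signs, positive in 3 of 4 libraries in premyelinating and in 1 of 4 in myelinating nuclei.

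PDGFRB was the receptor of mural cells. Their level was 372, 633, 430.2 and 551 CPM, a mean of 497 ± 118 CPM on 74, 27, 43 and 25 UMIs, and it did not overlap with that of any other class. A UMI of PDGFRB was found in 55 of the 61 mural nuclei, and in 0.349% to 1.25% of granule-lineage nuclei by library. In the 29 nuclei of the sub-cluster that held little FLT1, PDGFRB was 695, 885, 832 and 590 CPM. All 7 listed mural markers had UMIs in the class, and 6 of 7 in the 29 nuclei, where MYH11, of smooth muscle, had none.

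Outside mural cells PDGFRB was measured in fibroblasts, endothelium and astroglia. Fibroblasts had 55.9, 58.6, 59.3 and 48.2 CPM, the narrowest spread of these 4 classes, and endothelial cells 8.40, 25.1, 14.3 and 75.7 CPM on 2 to 4 UMIs. Bergmann glia had 30, 118.5, 41.9 and 80.1 CPM, and astrocytes 21.2, 46.7, 24.7 and 63.2 CPM. Empty droplets had 26.2, 11.3, 36.3 and 6.89 CPM, so that astrocytes and endothelial cells of both female libraries lay below the free RNA of their library, while fibroblasts and Bergmann glia lay above it in each library. Astroglia held 55.2% of the 1188 UMIs of PDGFRB and 12.7% of all UMIs, against 25.1% and 2.88% in vascular and fibroblast clusters. No UMI was counted in 89 premyelinating oligodendrocytes, which allows up to 6.47 CPM, and the granule lineage had 1.395 to 3.135 CPM.

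Ligand and receptor transcripts were also counted in the same nuclei. Of 403 fibroblasts, 353 held a UMI of PDGFRA, 70 held one of PDGFRB, and 61 held both. PDGFRB was found in 17.3% of fibroblasts with and in 18% of those without PDGFRA, although nuclei with PDGFRA were deeper (median 3741 against 1441 UMIs). Of 61 mural nuclei, 27 held a UMI of the ligand PDGFB, and 26 of these also held its receptor PDGFRB (96.3%), against 85.3% of those without PDGFB. The mural nuclei with PDGFB had a median of 9055 UMIs, against 3030 for the others. Of the PDGFB of the class, 5 UMIs lay in the 29 nuclei with little FLT1, and the summed level of 9 endothelial markers in the class was 4279, 1852, 4992 and 4698 CPM. Their part in these counts was not tested. In Bergmann glia 1632 nuclei were counted, of which 961 held PDGFC and 220 held PDGFD. PDGFD was found in 16.96% of those with and in 8.495% of those without PDGFC, with median depths of 4839 and 2317 UMIs.

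Across the 22 classes the mean levels of ligand and receptor pairs, on the log2(CPM + 1) scale, were correlated weakly. Pearson's r was 0.34 for PDGFB and PDGFRB, -0.08 for PDGFA and PDGFRA, -0.14 for PDGFC and PDGFRA, and 0.20 for PDGFD and PDGFRB. These values describe 22 classes that share the same 4 libraries and carry no test.

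Genes with a pattern most like each member over the same 22 classes were taken among 12925 genes with at least 10 CPM in a class. For PDGFRB they included NOTCH3 and ERBB2 (r of 0.94 and 0.93). NOTCH3, the Notch receptor of vascular smooth muscle and pericytes, was highest in mural cells at 472 CPM. For PDGFB they were ZAP70, GIMAP6 and ARHGAP27 (0.94 each), and for PDGFRA they were FERMT1, LPAR4 and CREB3L1 (0.87, 0.86 and 0.84), each highest in fibroblasts. Those of PDGFA were HIPK2 and LGI3 (0.85 and 0.83), both highest in myelinating oligodendrocytes, besides ENSMMUG00000018873, a gene with no symbol (0.88). PDGFC was most like TOX, ZMAT5 and IGSF11 (0.81, 0.80 and 0.80), and those of PDGFD included ZBTB37 and C19orf57 (0.84 each).

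In the comparison of LPS with Control, no member was called in any class. UMIs were summed for each library and class and compared by edgeR (quasi-likelihood test), with p-values adjusted by the method of Benjamini and Hochberg over all genes tested in a class and a call at an adjusted p under 0.05. The members gave 83 tests in 25 classes, which were 22 separate classes and 3 sums (all nuclei, the granule lineage and the oligodendrocyte cluster), and 0 were called. The smallest adjusted p was 0.9995 and 1 test had an unadjusted p under 0.05. The background was the same, with 0 of 208905 tests of all genes called (0%) and 1026 (0.491%) under an unadjusted 0.05. That share is lower than the threshold alone would give if no gene differed. The fit held no term for sex, so that differences between the sexes were part of its residual spread. The lack of calls therefore does not show that the levels were equal. DESeq2, which tested more genes, called 0 of 146 member tests, with 0 under an unadjusted 0.05, and 3 of 420430 tests of all genes (0.000714%). With 2 fetuses a group the smallest two-sided p of an exact permutation test is 0.333, and whether the libraries of a group were processed separately is not stated.

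Intervals given with the values that follow are 95% intervals from the standard error and the degrees of freedom of the fit.

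PDGFA in myelinating oligodendrocytes had a log2 difference (LPS minus Control) of -1.10 ± 0.766 (SE), with an interval from -2.76 to 0.545. The 414 CPM of the Control male library was the highest value, and the groups overlapped. Without that library the difference was 0.77, and with classes set by marker score it was -0.0038. The MKX cluster, where PDGFA was higher, gave 7, 7, 4 and 6 nuclei to the myelinating class, and the MAL cluster 13, 6, 8 and 52. The part of this mix in the difference was not tested. In premyelinating oligodendrocytes the difference was 0.036 ± 1.10. PDGFB in endothelial cells differed by 0.13 ± 0.455, with an interval from -0.937 to 1.20, and both LPS values lay between the Control values. It was -0.24 without the Control female library. PDGFB in microglia differed by -0.20 ± 0.466.

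PDGFC in the COL21A1 granule cluster differed by 0.049 ± 0.731, from -1.77 to 1.86. The LPS libraries were the highest and the lowest of the 4 here, at 904 and 191 CPM, with both Control libraries between them. Without the LPS female library the difference was -1.52, and without the Control male library -0.28. The same held in proliferating granule precursors (0.28 ± 0.750) and in the granule lineage as a whole (0.22 ± 0.830), where PDGFC was 180.5, 125, 306 and 53.8 CPM. The GABRB2 cluster, low in PDGFC, made up 7.88%, 8.53%, 6.96% and 32.0% of granule-lineage nuclei, and the COL21A1 cluster 11.2%, 11.4%, 13.9% and 6.85%, so that the LPS male library stood apart. The part of this mix in the level of the lineage was not tested. In the granule lineage the difference was -1.52 without the LPS female and -0.066 without the Control male library. In Bergmann glia the difference was -0.059 ± 0.559.

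The 1 member test under an unadjusted 0.05 was PDGFC in myelinating oligodendrocytes, at -1.94 ± 0.886 (unadjusted p = 0.0467, adjusted p of 0.9999 by edgeR over 3138 genes). It rested on 19 and 6 UMIs in the Control and 2 and 7 UMIs in the LPS libraries. The MAL cluster made up 52 of 58 myelinating nuclei in the LPS male library, against 13 of 20, 6 of 13 and 8 of 12 in the Control female, Control male and LPS female libraries, and its part in the difference was not tested.

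PDGFD in the COL21A1 cluster differed by 0.32 ± 0.31, from -0.448 to 1.09. The groups did not overlap, at 44.5 and 41.2 CPM in Control and 51.8 and 54.9 CPM in LPS libraries. The groups did not overlap in 5 of the 15 tests of PDGFD (33.3%) and in 11 of the 83 of all members (13.25%), against 17.3% of all gene and class tests (9.17% higher in LPS and 8.18% higher in Control). It was higher in both LPS libraries in the COL21A1 cluster, in proliferating granule precursors (21.7 and 17.5 against 27.2 and 35.6 CPM), in the EBF3 cluster (4.32 and 2.79 against 6.26 and 7.97 CPM) and, by 39.55 against 39.6 CPM, in proliferating glia, and lower in the high-UMI granule cluster. The tests of PDGFD share their libraries and, with the sums, their nuclei.

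**Figure D4:**
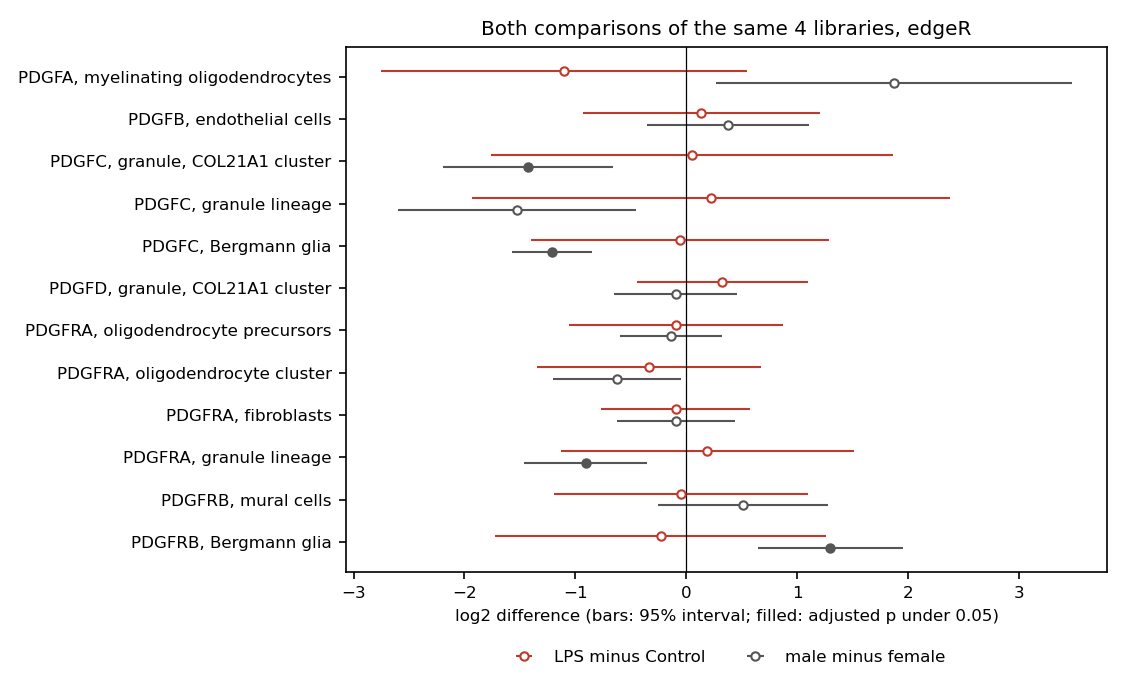
Log2 differences from edgeR with 95% intervals from the standard error and degrees of freedom, for LPS minus Control (red) and male minus female (grey) over the same 4 libraries, in 12 pairs of gene and class; a filled point has an adjusted p under 0.05. No red point is filled, and the filled grey points are PDGFC in the COL21A1 cluster and Bergmann glia and PDGFRA in the granule lineage, to the left of 0, and PDGFRB in Bergmann glia, to the right.

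PDGFRA in oligodendrocyte precursors had a log2 difference of -0.093 ± 0.440, from -1.055 to 0.869. Both Control libraries (1569 and 1543 CPM) were above both LPS libraries (1428 and 1437 CPM), as in either direction for 22.3% of the 2776 genes tested in that class. Without the Control female library the difference was 0.023. In fibroblasts it was -0.097 ± 0.285, from -0.768 to 0.574, and the groups again did not overlap, as for 26.9% of the genes tested in fibroblasts. PDGFRB in mural cells differed by -0.046 ± 0.488, from -1.19 to 1.10, with overlapping groups. It was 0.32 without the Control male and 0.078 without the LPS female library. In Bergmann glia PDGFRB differed by -0.23 ± 0.620.

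PDGFRA over the whole oligodendrocyte cluster, all stages and a sub-cluster with neuronal genes (16.7% to 24.1% of its nuclei) summed, was 785, 678, 733 and 424 CPM, with a log2 difference of -0.33 ± 0.453 (interval -1.34 to 0.673). Without the LPS male library the difference was 0.055. That library was lowest, and the other 3 lay between 678 and 785 CPM. Precursors made up 42.1%, 36.5%, 37.2% and 20.9% of the nuclei of the cluster, and the MAL myelinating cluster 10.3%, 6.25%, 9.30% and 32.9%. With the share of each sub-cluster in the UMIs held at its mean over the 4 libraries, the level became 730, 646, 717 and 560 CPM. The log2 ratio of the group means went from -0.34 to -0.11 with it, an alternative chosen after seeing the data. The MAL share of the LPS male library was based on 52 nuclei, against 6 to 13 in the others.

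**Figure D5:**
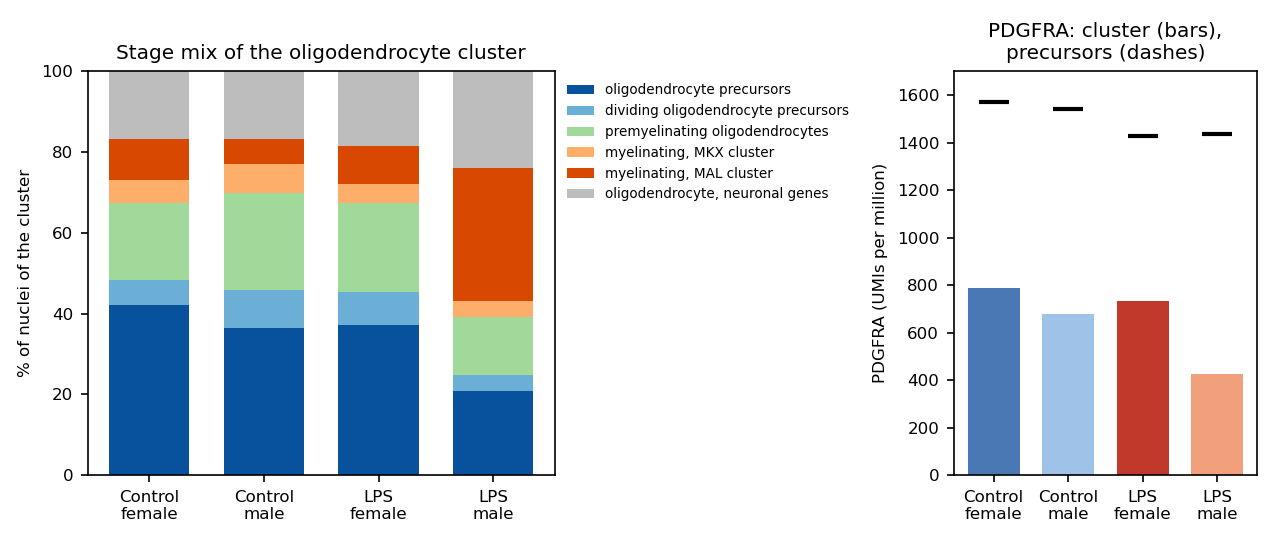
Left, share of nuclei of the oligodendrocyte cluster in each sub-cluster by library; right, PDGFRA (CPM) over the whole cluster (bars, from 0) and in its precursors (dashes). The LPS male library had 20.9% precursors and the lowest bar (424 CPM), while the dashes of all libraries lay between 1428 and 1569 CPM.

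The 4 libraries differed more by sex, and by the depth that moved with it, than by group. Of the 83 member tests of male against female, 21 (25.3%) were called by edgeR, 4 higher and 17 lower in males, against 15.3% of 208905 tests of all genes (7.85% higher and 7.45% lower). An unadjusted p under 0.05 was found in 47 (56.6%), against 33.2% of all tests. DESeq2 called 21 of 146 member tests, against 5.3% of all. With group as a term in the edgeR fit 15 were called, against 11.1% of all tests, among them 7 of PDGFC, 5 of PDGFRA, 2 of PDGFA and 1 of PDGFRB. The tests share nuclei between classes and sums, so these counts are not independent. With 1 male and 1 female in each group, sex cannot be told apart from depth, mitochondrial share or any processing that the same-sex libraries shared.

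PDGFC was lower in males, with 9 of 21 tests called and both males below both females in 18 of 21, as in 25.3% of all gene and class tests. In proliferating granule precursors it differed by -1.64 ± 0.237 (adjusted p = 0.00252 by edgeR, where 27.4% of genes were called). In the COL21A1 cluster it differed by -1.43 ± 0.328 (adjusted p = 0.0288 by edgeR, 17.4% called). In Bergmann glia the difference was -1.21 ± 0.150 (adjusted p = 0.0150 by edgeR, 11.7% called), and the values of the same sex lay close, at 484 and 479.6 CPM in females and 246 and 228 CPM in males. In the granule cluster led by GABRB2 the difference was -0.36 ± 0.25 and was not called.

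PDGFRA had a negative difference in males in 25 of 25 tests and both males were below both females in 21, as in 25.3% of all gene and class tests. It was called lower in 8, against 7.45% of all tests, which included the granule lineage (-0.91 ± 0.220, adjusted p = 0.0386 by edgeR, where 24.9% of genes were called) and astrocytes (-0.81 ± 0.185, adjusted p = 0.0328 by edgeR, 14.5% called). With group in the edgeR fit the adjusted p was 0.0791 in the granule lineage and 0.0499 in astrocytes. It was not called in the 2 classes where it was high, with -0.14 ± 0.228 in oligodendrocyte precursors and -0.096 ± 0.235 in fibroblasts. The difference between classes was not tested.

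PDGFA went the other way, and PDGFRB took both directions. PDGFA was higher in both males in 7 of 7 tests, as in 37% of all gene and class tests (62.3% did not overlap in either direction), with 2 called. Those were all nuclei (1.58 ± 0.333, adjusted p = 0.0263 by edgeR, 25.1% called) and the COL21A1 cluster (2.06 ± 0.498, adjusted p = 0.0327 by edgeR). With group in the edgeR fit the adjusted p was 0.0509 over all nuclei and 0.0238 in the COL21A1 cluster. PDGFRB had a positive difference in 5 and a negative one in 3 of 8 tests, down to -0.84 in the granule lineage, which was not called. It was called higher in males in Bergmann glia (1.297 ± 0.270, adjusted p = 0.0351 by edgeR) and in astrocytes (1.07 ± 0.269, adjusted p = 0.0421 by edgeR), but not in mural cells (0.51 ± 0.354). With group in the edgeR fit the adjusted p was 0.0663 in Bergmann glia and 0.0467 in astrocytes, and by DESeq2 it was 0.0254 and 0.161. PDGFB and PDGFD had 0 calls of 7 and 15 tests by edgeR, with 0 and 2 under an unadjusted 0.05, and 0 calls by DESeq2, with 0 and 1 under it.

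Of a list of 52 genes of PDGF signalling and related receptors, 48 were in the gene list. The list held 9 proteins that activate or bind ligands, 20 adaptors and effectors, 12 phosphatases and feedback regulators, the receptors KIT, CSF1R and FLT3, and 8 VEGF ligands and receptors. None was called between LPS and Control in any of the 25 classes by edgeR. In the granule lineage 44 were tested, with 0 under an unadjusted 0.05 and a median log2 difference of -0.048, against 0.0086 for all genes. In oligodendrocyte precursors 15 were tested, with a median of 0.017 against 0.020.

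List genes with the smallest p in some of the classes are given as values, since none passed the test. At most 1 list gene in a class had an unadjusted p under 0.05, in 6 of 25 classes. In oligodendrocyte precursors GRB2, the adaptor that links activated receptors to RAS, differed by 0.94 ± 0.658. In fibroblasts VEGFC, a lymphatic growth factor, differed by -1.30 ± 0.524 (unadjusted p = 0.0418, adjusted p of 0.9996 by edgeR), of 28 list genes tested. In mural cells CRK, an adaptor, differed by -0.82 ± 0.485 and KDR, the main VEGF receptor of endothelium, by 1.25 ± 0.749, in a class whose endothelial marker sum was 4279, 1852, 4992 and 4698 CPM. In the granule lineage NRP1, a co-receptor, differed by -1.01 ± 0.452, and in Bergmann glia GRB10, an adaptor, by -0.92 ± 0.433. In proliferating granule precursors NRP1 differed by -1.65 ± 0.424 (unadjusted p = 0.00891, adjusted p of 1 by edgeR). NRP1 also had the smallest p in the COL21A1 cluster (-1.59, unadjusted p = 0.0311), in astrocytes (-1.46, unadjusted p = 0.0363) and in the high-UMI cluster (-1.70, unadjusted p = 0.0406), and KDR in the GABRB2 cluster (-2.37, unadjusted p = 0.0237), with adjusted p of 0.9999 by edgeR in these 4.

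Between males and females, 8 of 44 list genes were called higher and 6 lower in males in the granule lineage by edgeR, where 24.9% of all genes were called. SPARC, a matrix protein that binds PDGF, fell by 2.77 on the log2 scale in males (adjusted p = 0.0147 by edgeR), and VEGFA was higher by 1.47 (adjusted p = 0.0111 by edgeR). In the oligodendrocyte cluster 1 of 26 was called, GRB10, higher by 1.23 in males (adjusted p = 0.0393 by edgeR, where 7.19% of genes were called). In fibroblasts the 1 call of 28 was SPARC, which fell by 1.78 (adjusted p = 0.0351 by edgeR, 1.39% called).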

How the data were processed

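The deposited files hold UMI counts per gene and barcode, which the authors made with Cell Ranger from 10x Genomics 3′ libraries of nuclei, introns included, on the macaque genome Mmul_8.0.1. The submitters' processing notes give Cell Ranger version 4, and the paper names another version. The count tables were not corrected for free RNA. Genes were named by the symbols in the files. The study listed fewer nuclei than the barcodes kept here for 3 libraries and more for the LPS female library.

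Barcodes with at least 500 genes were kept. They were clustered without the 6 genes in Seurat 5.3.0 (R 4.3.3; 2000 variable features, 30 dimensions, resolution 0.5), which gave 22 clusters. The oligodendrocyte cluster and the vascular and fibroblast clusters were clustered again at resolution 0.3, with endothelial and mural nuclei taken at resolution 0.5; both values were chosen after seeing the data. An earlier computation that differed in the linear algebra settings of the processor moved nuclei between granule clusters and between endothelial and mural nuclei, and called no member between LPS and Control either; its values are not used here. Names came from marker lists, of which 157 of 173 entries were in the gene list. Nuclei in low-UMI clusters and in clusters with neuronal genes among glial or vascular ones were left unnamed or out of the separate classes, although the sum over the oligodendrocyte cluster includes them, and 4993 rows that repeat a symbol were kept as separate genes. Doublets were called with Scrublet in scanpy 1.11.5 (Python 3.11.15) and removed only in an alternative. In the male libraries the caller's own threshold marked 0% and 0.0256% of nuclei, so these took the median of the thresholds found elsewhere. Empty droplets were the barcodes ranked from 3 to 10 times the number of nuclei.

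UMIs were summed by library and class, in 25 classes with at least 10 nuclei in each library, and tested with edgeR 4.0.16 (quasi-likelihood, TMM scaling, filter on low counts). Adjusted p-values are those of Benjamini and Hochberg over all genes of a class. DESeq2 1.42.0, other filters, leaving out each library, and a block were alternatives. The test was run on simulated counts with a fixed dispersion for all genes and no difference between the sexes. This checked the computation and does not give the power of the test in these libraries. For shares, 95% Wilson intervals were computed, and a count of 0 was given the limit of 3 UMIs over the class or 3 nuclei; both cover counting error only. The male against female comparison was added after seeing the data. The genes, the pathway list, the marker lists and the classes described were chosen with earlier results of these data known. Named genes were the 6 members, the 3 genes most like each (some are not reported here), and, of the pathway list, those with the smallest p in a class.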

Additional observations from a re-analysis of the deposited data

Results flagged for a closer look

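In 5 of the 8 pairs of gene and class that the comparison led with, the difference between LPS and Control had opposite signs in females and in males. Over all members and classes, sums and empty droplets included, signs were opposite in 90 of the 144 pairs with UMIs in each library. The pairs named here were thus not set apart from the others by this. There was 1 library for each sex and group, so that the difference between the sexes was not tested. PDGFA in myelinating oligodendrocytes had a log2 ratio of LPS over Control of 0.31 in females and -1.87 in males. Within the class, the ratios were -0.031 and -0.55 in the MKX cluster and 1.82 and 0.042 in the MAL cluster. In the Control female and LPS female libraries 5 and 3 nuclei of the class held PDGFA, of which 4 and 2 lay in the MKX cluster. The ratio of 1.82 thus rests on very few nuclei with PDGFA. In the male libraries the MKX cluster held 7 nuclei in Control and 6 in LPS, and the MAL cluster 6 and 52. The part of this mix in the ratio of the class was not tested. The ratio of PDGFB in endothelial cells was 0.64 in females and -0.36 in males. PDGFC in the COL21A1 granule cluster had ratios of 0.45 and -1.12, and in the whole granule lineage 0.76 and -1.22. PDGFRB in mural cells had ratios of 0.21 and -0.20.

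Among barcodes outside the separate classes tested, PDGFRA in empty droplets reached 1150 CPM in the LPS female library, against at most 358.8 CPM in a Control library. PDGFRA in the unnamed cluster of low UMI number was 650.8 CPM in the LPS female library, against at most 324.7 CPM in a Control library. PDGFC in vascular nuclei with neuronal genes was 300.1 CPM in the LPS female library, against at most 116.3 CPM in a Control library.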

How the results depend on the processing

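No member was called between LPS and Control under any of 14 settings, with 75 to 146 tests and 0 to 7 under an unadjusted 0.05. Of 113 recomputed log2 differences, 97 kept their sign and 16 changed sign, 10 of them with a library left out. With each library left out in turn, PDGFA in myelinating oligodendrocytes ranged from -2.0 to 0.77, positive without the Control male library, and was -0.0038 with classes set by marker score, near 0 though of the same sign. PDGFB in endothelial cells ranged from -0.24 (without Control female) to 0.63, PDGFC in the COL21A1 cluster from -1.52 (without LPS female; -0.28 without Control male) to 0.77, and PDGFC in the granule lineage from -1.52 (without LPS female; -0.066 without Control male) to 0.99. PDGFD in the COL21A1 cluster ranged from 0.23 to 0.44. PDGFRA in precursors ranged from -0.21 to 0.023 (without Control female), PDGFRA in the oligodendrocyte cluster from -0.88 to 0.055 (without LPS male), and PDGFRB in mural cells from -0.34 to 0.32 (without Control male; 0.078 without LPS female). With classes set by marker score PDGFRA in precursors was 0.017 and PDGFRB in mural cells 0.18; the latter was 0.044 by DESeq2 and 0.033 with no low-count filter, and it could not be computed for nuclei of 1000 or more genes, which left under 10 nuclei in a library. PDGFD in the COL21A1 cluster could not be computed with classes set by marker score, which make no such cluster. The cause of these changes was not tested. With the replicate block, here sex, PDGFC was -0.27 in the COL21A1 cluster and -0.22 in the granule lineage, and no call changed. The numbers of the libraries share nothing but accession order, and same-sex libraries correlated across genes in their deviation from the group means (r of 0.65 over all nuclei, 0.18 in fibroblasts). Less the granule level of the same library, PDGFRA gave -0.18 in precursors and -0.67 in the cluster, alternatives added after seeing the data.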

Other observations

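Nuclei that could not be placed in a tested class also held members of the family. PDGFRA was 598, 645.3, 644.9 and 425.5 CPM in vascular nuclei with neuronal genes, in the order Control female, Control male, LPS female and LPS male. In the few choroid plexus or ependymal nuclei, the ciliated and secretory lining of the ventricles, PDGFRA was 417, 872, 424 and 303 CPM. These were 2, 3, 22 and 13 nuclei, so that both Control values rest on very few. In the unnamed cluster of low UMI number PDGFRA was 300.0, 325, 651 and 157 CPM.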
